A study of Rattus norvegicus with 11 samples.

Results

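The genes described here are 7 genes of plasma cell differentiation and antibody secretion, Prdm1, Irf4, Xbp1, Sdc1, Tnfrsf17, Mzb1 and Jchain, out of 32623 genes in the deposited table. They were taken by gene symbol, each symbol stood on a single gene, and all 7 had a mean FPKM of at least 1 in each comparison. FPKM scales the fragments of a gene by its length and by the depth of the library, so that it is a scale on which levels of different genes can be set side by side. RNA was sequenced from peripheral WBCs of male Wistar rats, which were 7 weeks old by the methods of the study. Normal samples came from 3 normal healthy controls, and the treatment of these controls, if any, was not given in the sources used here. The other 4 rats had collagen-induced arthritis (CIA) after bovine type II collagen in incomplete Freund's adjuvant with a boost on day 7. The first sample of each CIA rat, near day 8, was of Nampt++ status and the second, near day 14, of Nampt+ status, as set by the authors with PCR of Nampt. Same-numbered CIA samples are from the same rat by the numbers in their descriptions, and status and day cannot be told apart. Each gene was also compared with Ighg1, which encodes the constant region of an IgG heavy chain, over the samples.

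Total counts per sample lay between 65340027 and 85819418, and haemoglobin genes took from 6.84% to 42.8% of them. The level of Nampt itself overlapped between the groups in these libraries, at 10.1 to 46.5 FPKM in the 4 Nampt++ samples, 11.4 to 36.9 FPKM in the 4 Nampt+ samples and 13.5 to 32.9 FPKM in the 3 Normal samples. The labels give an extraction protocol for retinas, whereas the sample sources name blood leukocytes. Of the markers looked at, all 7 of B cells, 8 of T cells and 9 of neutrophils found in the table were above 0 in each group.

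Plasma cells are the end stage of B cells and secrete antibody at a high rate. IRF4 and BLIMP-1, the product of Prdm1, are transcription factors that shut down the B cell programme and start that of the plasma cell, and XBP1 enlarges the endoplasmic reticulum (ER) in which antibody is folded. Few such cells circulate in healthy blood, and after an immunization short-lived plasmablasts pass through it on their way from lymph nodes. In bulk RNA of WBCs, fewer plasma cells and less RNA of these genes per plasma cell cannot be told apart. None of the 7 genes is made by plasma cells alone, and T cells, plasmacytoid dendritic cells or myeloid cells are known to use several of them.

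The sequences upstream of 3 of the genes are shown because Jchain and Tnfrsf17 moved together over the samples and because Xbp1 had the most extreme sample. They are the 250 bases before the start of the gene in RefSeq (build GRCr8), which held 6 of the 7 genes. These positions are in GRCr8 and those of the genes, given further on, are as deposited, in a build not given in the sources used here. Xbp1 lies at chr14:84604373-84604622 on the plus strand, Jchain at chr14:19822726-19822975 on the plus strand and Tnfrsf17 at chr10:4813773-4814022 on the minus strand. Capitals mark a match to a motif searched on both strands.
Xbp1: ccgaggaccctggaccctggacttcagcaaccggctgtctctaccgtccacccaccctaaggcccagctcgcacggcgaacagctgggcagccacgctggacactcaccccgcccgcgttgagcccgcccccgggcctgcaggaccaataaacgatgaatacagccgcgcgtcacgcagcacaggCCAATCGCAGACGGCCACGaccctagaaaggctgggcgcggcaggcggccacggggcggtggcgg
Jchain: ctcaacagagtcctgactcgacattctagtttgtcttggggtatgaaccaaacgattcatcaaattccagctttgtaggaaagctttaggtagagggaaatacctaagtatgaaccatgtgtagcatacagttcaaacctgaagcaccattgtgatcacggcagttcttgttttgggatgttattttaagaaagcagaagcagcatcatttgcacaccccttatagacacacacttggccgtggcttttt
Tnfrsf17: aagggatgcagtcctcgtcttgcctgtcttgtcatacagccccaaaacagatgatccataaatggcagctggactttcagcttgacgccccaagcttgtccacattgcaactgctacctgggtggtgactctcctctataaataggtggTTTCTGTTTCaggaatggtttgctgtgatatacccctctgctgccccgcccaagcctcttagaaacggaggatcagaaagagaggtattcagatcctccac
The capitals in Xbp1 are an ER stress response element (ERSE, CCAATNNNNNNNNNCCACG), from 65 to 47 bases before the start. This motif, to which the stress factors of the ER are known to bind, stood in 0.0657% of the 33469 upstream sequences in the table. The capitals in Tnfrsf17 are the core of an interferon response element (GAAANNGAAA, read on the other strand), from 101 to 92 bases before the start, and 3.41% of the sequences held it. The other motifs searched were ERSE-II (ATTGGNCCACG, 0.0418% of sequences), the UPR element (TGACGTGG, 0.52%), the octamer of immunoglobulin promoters (ATTTGCAT, 1.56%) and the composite element of Ets factors and IRF4 (GGAANNGAAA, 2.48%), and none of these had a match in the 6 genes. A match of letters is a description of the sequence and not of a bound site.

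Jchain was the most abundant of the 7 genes, with a median of 175 FPKM over the 11 samples. Xbp1 followed at 32.2 FPKM and was below Jchain in all 11 samples. Mzb1 stood at 23.3 FPKM and was below Xbp1 in 8 of 11 samples. The other 4 genes lay lower, with medians of 4.25 FPKM for Sdc1, 4.09 FPKM for Irf4, 3.65 FPKM for Tnfrsf17 and 3.12 FPKM for Prdm1. Mzb1 was above Sdc1 in all 11 samples, but neighbours among the last 4 changed places often: Sdc1 was above Irf4 in only 4 of 11 samples, and Irf4 was above Tnfrsf17 in 7 of 11. The spread between samples differed widely among the genes. The highest sample was 3.08 times the lowest for Prdm1 and 2.92 times for Mzb1, but 9.85 times for Sdc1.

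**Figure D1:**
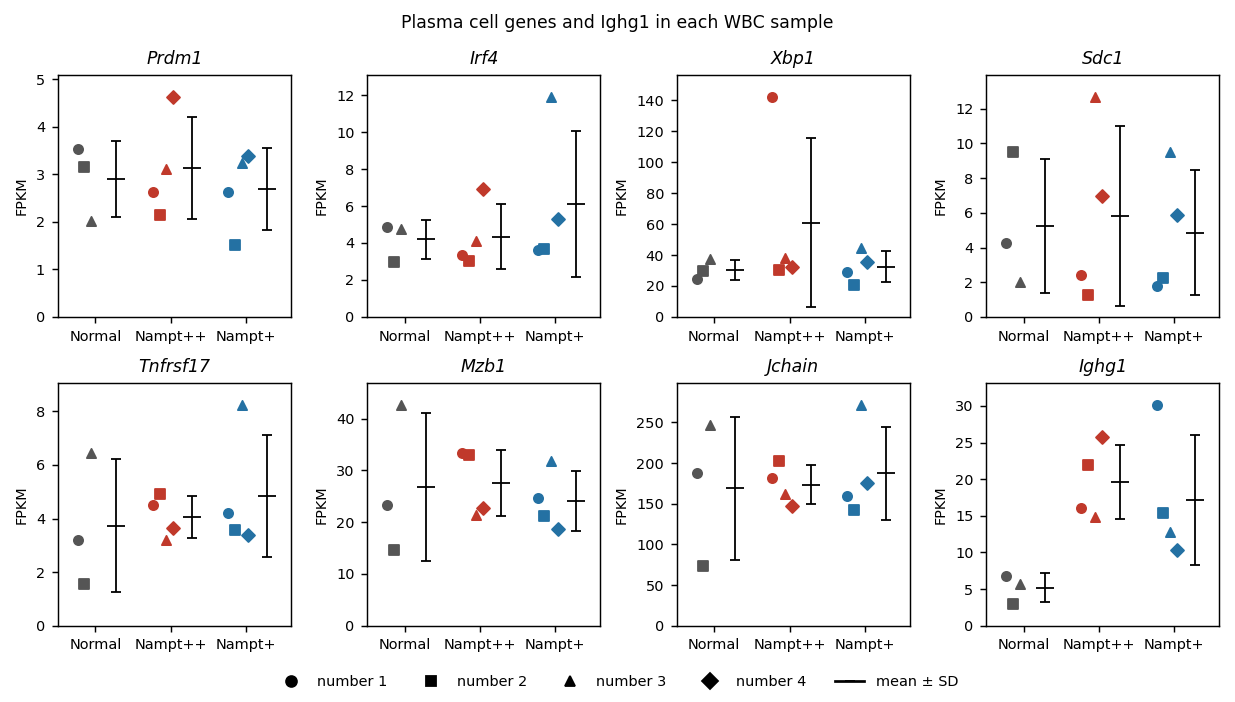
FPKM of the 7 plasma cell genes and Ighg1 in each WBC sample by group, with markers for the rat number and black bars for mean ± SD. The groups overlap for all 7 genes, whereas the 3 Normal samples of Ighg1 (3.02 to 6.83 FPKM) lie below all 8 CIA samples (10.4 to 30.1 FPKM).

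The first comparison asked how these genes differed between Nampt+ and Nampt++ samples of the same CIA rats, and the other comparisons set each status against the normal healthy controls. None of the 7 genes was called in any of the 3 comparisons, and their groups overlapped in all 21 of them. Calls needed group means in FPKM that differed by a ratio over 2 or under 0.5, together with an unadjusted p under 0.05 in the quasi-likelihood test of edgeR. By this rule 0.642% of 11219 genes were called for Nampt+ against Nampt++, 0.686% of 11219 genes for Nampt++ against Normal and 0.497% of 11269 genes for Nampt+ against Normal, so a set of 7 with no call was near the background. The share of genes whose groups did not overlap was 0.41%, 1.1% and 0.444% in the same order. The unadjusted p values of the 7 genes ran from 0.113 to 0.995 in edgeR, and none of the genes tested had an adjusted p under 0.05 in any of these fits, with 256, 176 and 98 genes at an unadjusted p under 0.05. DESeq2 gave 5, 5 and 4 genes with an adjusted p under 0.05 in the same order, none of them among the 7. The medians of the 7 log2 fold changes were -0.09, 0.12 and 0.09, beside medians near 0 over all genes tested. Both comparisons with controls used the same 3 Normal samples, so their results are not independent.

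Prdm1 (ENSRNOG00000000323, chromosome 20, 49464919 to 49486552, minus strand) was measured at 2.63, 2.15, 3.12 and 4.64 FPKM in the Nampt++ samples of rats 1 to 4, at 2.62, 1.51, 3.24 and 3.39 FPKM in their Nampt+ samples, and at 3.53, 3.16 and 2.01 FPKM in the Normal samples. The groups overlapped throughout, and only 1 of 4 rats was higher at Nampt+ status. The Nampt+ mean was 2.69 ± 0.857 FPKM (SD, n = 4), the Nampt++ mean 3.13 ± 1.08 FPKM (n = 4) and the Normal mean 2.90 ± 0.792 FPKM (n = 3). The 95% interval of the Nampt+ to Nampt++ difference ran from 0.663-fold to 1.20-fold, the narrowest for this comparison among the 7 genes. Prdm1 was thus not called, and a change of 2-fold lay outside this interval, which covers the spread between these samples.

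Irf4 (ENSRNOG00000061070, chromosome 17, 34886739 to 34905117, minus strand) stood at 3.34, 3.04, 4.09 and 6.91 FPKM in the Nampt++ samples, at 3.62, 3.68, 11.9 and 5.28 FPKM in the Nampt+ samples and at 4.88, 3.00 and 4.76 FPKM in the Normal samples. The Nampt+ sample of rat 3 was the highest of the 11, and 3 of 4 rats were higher at Nampt+ than at Nampt++ status. The log2 fold change between these states was 0.55 (SE 0.34, interval 0.851-fold to 2.51-fold) with an adjusted p of 0.99956 in edgeR. The sign-flip permutation within rats gave an exact p of 0.625, and 4 rats cannot bring this test under 0.05. Against Normal, the log2 fold change was 0.00 for Nampt++ and 0.54 for Nampt+.

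Xbp1 (ENSRNOG00000010298, chromosome 14, 85753760 to 85758145, plus strand) had a level of 142 FPKM in the Nampt++ sample of rat 1, whereas the Nampt++ samples of rats 2 to 4 held 30.4, 38.3 and 32.2 FPKM. Its Nampt+ samples had 28.9, 20.8, 44.4 and 35.6 FPKM and the Normal samples 24.6, 29.4 and 37.3 FPKM. A single sample was thus far above the other 10, and rat 1 was back among them at Nampt+ status. The fold changes of the group rested on this sample. The log2 fold change of Nampt++ against Normal was 0.93 (SE 0.55, interval 0.784-fold to 4.62-fold) and that of Nampt+ against Nampt++ was -0.82 (SE 0.47, interval 0.270-fold to 1.18-fold). Without this sample, the 2 values were 0.15 and -0.05. These fits did not have the rat as a block. With the rat as a block and all samples kept, the log2 fold change of Nampt+ against Nampt++ was -0.49. The exact permutation p was 0.343 for Nampt++ against Normal and 0.4 for Nampt+ against Nampt++. Nampt+ samples differed from Normal samples by 0.09 (SE 0.20) on the log2 scale. Leaving out Nampt++ replicate 4 instead took the log2 fold change of Nampt+ against Nampt++ from -0.82 to -1.096, and Xbp1 was then called.

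Sdc1 (ENSRNOG00000059947, chromosome 6, 33885495 to 33908016, plus strand) encodes syndecan-1 (CD138), the proteoglycan by which plasma cells are commonly sorted. Its levels were 2.41, 1.29, 12.7 and 6.95 FPKM in the Nampt++ samples and 1.78, 2.23, 9.51 and 5.87 FPKM in the Nampt+ samples of rats 1 to 4. Rats 3 and 4 stood above rats 1 and 2 at both times, and 1 of 4 rats was higher at Nampt+ status. The Normal samples spread over a like range, with 4.25, 9.54 and 2.00 FPKM. No difference between groups was detectable for Sdc1 against this spread, and the interval was wide, from 0.276-fold to 2.44-fold for Nampt+ against Nampt++ and from 0.234-fold to 3.81-fold for Nampt++ against Normal. The first interval is of the fit without the rat as a block, where the log2 fold change was -0.29. With the rat as a block it was -0.009.

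Tnfrsf17 (ENSRNOG00000021987, chromosome 10, 4251941 to 4257868, minus strand) encodes BCMA, the receptor through which the cytokines APRIL and BAFF keep plasma cells alive. It was measured at 4.51, 4.92, 3.20 and 3.65 FPKM in the Nampt++ samples, at 4.19, 3.56, 8.23 and 3.37 FPKM in the Nampt+ samples and at 3.20, 1.55 and 6.45 FPKM in the Normal samples. The 8.23 FPKM of rat 3 was the highest of all, and Normal replicate 2 was the lowest. The log2 fold change against Normal was 0.24 (SE 0.38) for Nampt++ and 0.53 (SE 0.43) for Nampt+, with exact permutation p values of 0.629 and 0.4. The counts behind these values were low, from 134 to 654 reads per sample.

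Mzb1 (ENSRNOG00000022009, chromosome 18, 28436548 to 28438654, minus strand) encodes a chaperone of the ER that aids the assembly of IgM. Its levels were 33.3, 32.9, 21.3 and 22.7 FPKM in the Nampt++ samples, 24.6, 21.1, 31.8 and 18.6 FPKM in the Nampt+ samples and 23.3, 14.6 and 42.6 FPKM in the Normal samples. The highest and the lowest of the 11 values were both of controls. The interval of the Nampt++ to Normal difference ran from 0.676-fold to 1.75-fold, and that of Nampt+ to Normal from 0.610-fold to 1.67-fold.

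Jchain (ENSRNOG00000003666, chromosome 14, 21177237 to 21183542, plus strand) encodes the chain that joins the units of polymeric IgM and IgA and is not part of IgG. It was at 182, 203, 162 and 147 FPKM in the Nampt++ samples, at 160, 143, 271 and 175 FPKM in the Nampt+ samples and at 187, 73.1 and 247 FPKM in the Normal samples. The Nampt++ samples kept within 1.38 times of each other, whereas the controls differed by 3.37 times. The means were 173 ± 24.2 FPKM (SD, n = 4) in Nampt++, 187 ± 57.5 FPKM (n = 4) in Nampt+ and 169 ± 88.2 FPKM (n = 3) in Normal samples. The log2 fold change of Jchain was 0.13 (SE 0.31) for Nampt++ against Normal and 0.28 (SE 0.32) for Nampt+ against Normal, with exact permutation p values of 0.857 and 0.714.

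**Figure D2:**
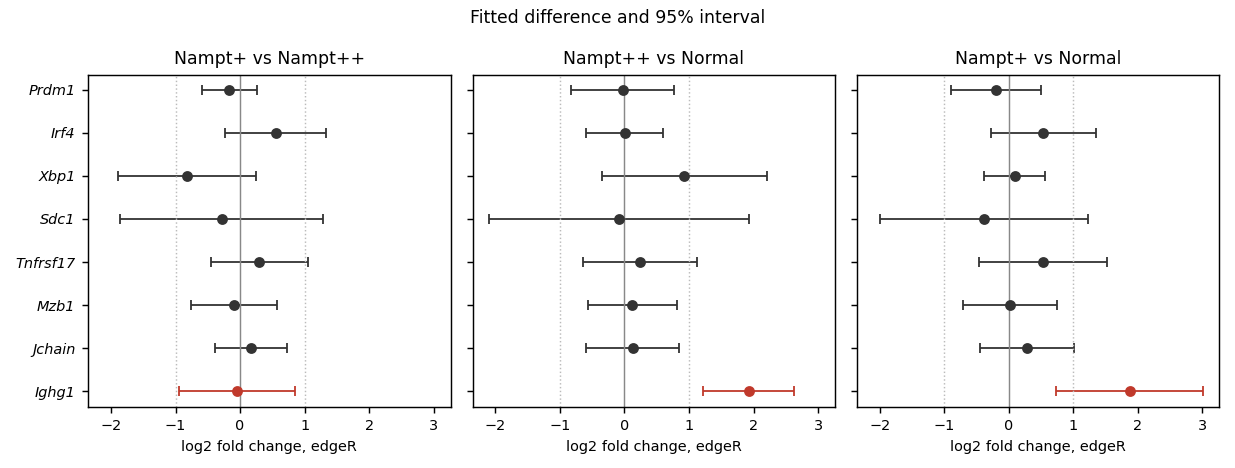
Log2 fold change from edgeR with its 95% interval for the 7 plasma cell genes (black) and Ighg1 (red) in the 3 comparisons, with dotted lines at a change of 2-fold. All intervals of the 7 genes cross 0, and Ighg1 lies at 1.92 and 1.87 against Normal.

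Ighg1 (ENSRNOG00000030332, chromosome 6, 139140679 to 139142218, minus strand) behaved otherwise. It stood at 16.1, 21.95, 14.9 and 25.7 FPKM in the Nampt++ samples, at 30.1, 15.4, 12.7 and 10.4 FPKM in the Nampt+ samples and at 6.83, 3.02 and 5.73 FPKM in the Normal samples. All 8 CIA samples were above all 3 controls. The ratio of means was 3.78 for Nampt++ against Normal (log2 fold change 1.92, SE 0.31, adjusted p = 0.99992 in edgeR) and 3.30 for Nampt+ against Normal (log2 fold change 1.87, SE 0.49, adjusted p = 0.99999 in edgeR). Ighg1 was called in both, and in neither by the adjusted p of edgeR. The exact permutation p was 0.0286 in each, the smallest these group sizes can give, and DESeq2 gave an adjusted p of 2.14e-05 for Nampt++ and 0.149 for Nampt+. Between Nampt+ and Nampt++ samples the log2 fold change of Ighg1 was -0.05 (SE 0.40, interval 0.517-fold to 1.81-fold). Genes of immunoglobulin constant regions share sequence, and how the authors counted reads that fit several of them is not given in the sources used here.

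Since the level of Ighg1 differed from the controls and those of the 7 genes were not called, the difference between them was tested as the ratio of Ighg1 to each gene within a sample. This test was chosen after the values were seen, all 7 ratios share the values of Ighg1, and 21 such tests were run without adjustment. Relative to Jchain, Ighg1 stood at 3.65%, 4.12% and 2.32% of its FPKM in the Normal samples. The same share was 8.84%, 10.8%, 9.16% and 17.5% in the Nampt++ samples and 18.8%, 10.8%, 4.70% and 5.90% in the Nampt+ samples. Both sets of CIA samples were above the controls, with rats 3 and 4 nearest to them at Nampt+ status. On the log2 scale the ratio of Ighg1 to Jchain was higher by 1.77 in Nampt++ than in Normal samples (exact permutation p = 0.0286), with a range of 1.52 to 1.94 on leaving out any sample.

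For Nampt++ against Normal, the exact permutation p was also 0.0286 for the ratios to Mzb1 (log2 difference 1.82), Tnfrsf17 (1.63), Irf4 (1.97) and Prdm1 (1.88). For the ratios to Xbp1 and Sdc1 it was 0.143 and 0.171, and there the groups overlapped. In the Nampt+ samples, the ratio to Mzb1 differed from that of Normal samples by 1.73 with an exact permutation p of 0.0286. The other 6 ratios had exact permutation p values from 0.0571 for Jchain and Prdm1 to 0.257 for Sdc1. Between Nampt+ and Nampt++ samples no ratio had an exact permutation p under 0.4. Ratios of Ighg1 to any gene behaved much alike, since the same Ighg1 values enter all of them. Over all genes tested that were above 0 in each sample, an exact p under 0.05 was reached by 74.3% of 11046 ratios for Nampt++ against Normal, 15.4% of 11088 for Nampt+ against Normal and 0.218% of 11023 for Nampt+ against Nampt++. The 5 of 7 and 1 of 7 plasma cell genes were thus near the background and say nothing particular of these genes.

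**Figure D3:**
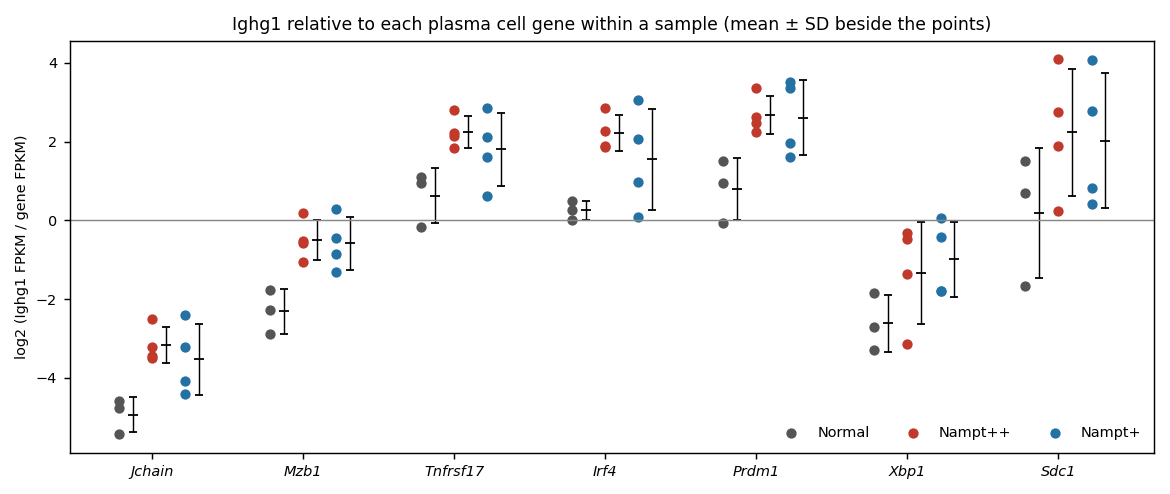
Log2 of the ratio of Ighg1 FPKM to the FPKM of each plasma cell gene in each sample, by group, with mean ± SD beside the points. For Jchain the 3 Normal samples lie from -5.43 to -4.60 and the 4 Nampt++ samples from -3.50 to -2.51, whereas for Sdc1 the groups overlap.

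The strength of the correlation of each gene with Ighg1 was poorly determined with 7 rats. Over the 11 samples, which come from 7 rats, Pearson's r of log2(FPKM + 1) was 0.35 for Tnfrsf17, 0.30 for Jchain, 0.23 for Mzb1, 0.10 for Xbp1, 0.07 for Irf4, -0.01 for Prdm1 and -0.31 for Sdc1. Ighg1 separated the controls from the CIA samples, so these values mix the difference between groups with the relation within them, and neither group holds the 6 rats needed for a value of its own. With the samples of a rat averaged, r over the 7 rats ran from -0.33 for Sdc1 to 0.48 for Tnfrsf17 and Spearman's rho from -0.36 to 0.36. The exact permutation p of r lay between 0.286 and 0.807, and that of rho between 0.444 and 0.906, each with an adjusted p of 1.0 over all genes. As deviations from the group means, r over the 7 rats was -0.78 for Sdc1 (permutation p = 0.0474, not adjusted), whereas it ran from -0.26 for Prdm1 to 0.66 for Jchain in the other 6 genes, with permutation p values from 0.105 to 0.965. Deviations sum to 0 within a group, so their permutation p is only approximate. For r over the 7 rats without group means removed, 0.56% of 11241 genes had an exact p under 0.05. No such share was computed for the deviations.

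The values leaned on the controls. Without Normal replicates 2 and 3, the rats farthest from the median of Ighg1, r became -0.47 for Jchain and -0.37 for Irf4, both of which had been above 0, whereas it stayed above 0 for Xbp1 (0.60), Tnfrsf17 (0.52) and Mzb1 (0.42) and below 0 for Prdm1 (-0.49) and Sdc1 (-0.35). Without Normal replicate 2 alone, r was -0.75 for Jchain, -0.26 for Tnfrsf17 and -0.46 for Mzb1. Without Normal replicate 3 alone, it rose to 0.87 for Tnfrsf17 (exact permutation p = 0.0333) and to 0.84 for Mzb1 (exact permutation p = 0.0431). The r of Xbp1 kept its sign here, at 0.43 over all 7 rats, 0.40 without Normal replicate 2 and 0.50 without Normal replicate 3. The exact permutation p values were 0.343, 0.422 and 0.332. It leaned instead on CIA rat 1, which held the outlying Xbp1 sample, and was 0.079 without that rat (exact permutation p = 0.886). As deviations from the group means over the 11 samples, the r of Xbp1 was -0.34.

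Among themselves, the genes fell apart. Jchain, Tnfrsf17 and Mzb1 followed each other over the 11 samples, with a Pearson's r of 0.92 for Tnfrsf17 with Jchain, 0.87 for Tnfrsf17 with Mzb1 and 0.82 for Mzb1 with Jchain. Only 2 genes in the table with a mean FPKM of at least 1 were nearer to Tnfrsf17 than Jchain was. As deviations from the group means the same 3 values were 0.91, 0.95 and 0.87, and without Normal replicate 2, the lowest sample of all 3 genes, and Nampt+ replicate 3, the highest of Tnfrsf17 and Jchain, they were 0.75, 0.94 and 0.79. Ighm, the constant region of IgM, was picked after its values were seen and stood at an r of 0.85 with Jchain, 0.88 with Mzb1 and 0.82 with Tnfrsf17, but at 0.07 with Ighg1. Igh-6, another heavy chain entry, was less near, at 0.63 with Jchain, 0.81 with Mzb1 and 0.69 with Tnfrsf17. It stood at 0.58 with Ighm and 0.06 with Ighg1. These are descriptions over samples that share rats, group and cell make-up.

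The transcription factors and Sdc1 did not follow this set. Prdm1 had an r of -0.15 with Jchain, -0.36 with Mzb1 and 0.68 with Sdc1. Sdc1 ran against Mzb1 (r = -0.54). Irf4 lay between, at 0.52 with Jchain and 0.56 with Tnfrsf17, but at -0.14 and -0.27 without Normal replicate 2 and Nampt+ replicate 3. Xbp1 had an r of 0.42 with Mzb1 and 0.25 with Jchain. The r of these genes depended on the scaling. With log2 counts scaled by TMM, as in the edgeR fits, in place of FPKM, Prdm1 ran against the set. Its r was then -0.57 with Jchain, -0.68 with Mzb1, -0.66 with Tnfrsf17 and 0.74 with Sdc1. With Ighm it was -0.84, and -0.16 with FPKM. Irf4 fell to 0.32 with Jchain and 0.37 with Tnfrsf17, and Xbp1 to 0.27 with Mzb1 and 0.01 with Jchain. Among Jchain, Tnfrsf17 and Mzb1, r stayed from 0.77 to 0.90. On FPKM, the mean log2 level of 23 other plasma cell genes had an r of 0.67 with Irf4, 0.64 with Jchain and 0.55 with Tnfrsf17. This mean had an r of 0.50 with Prdm1, 0.40 with Mzb1, 0.22 with Sdc1, 0.15 with Xbp1 and 0.04 with Ighg1.

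**Figure D4:**
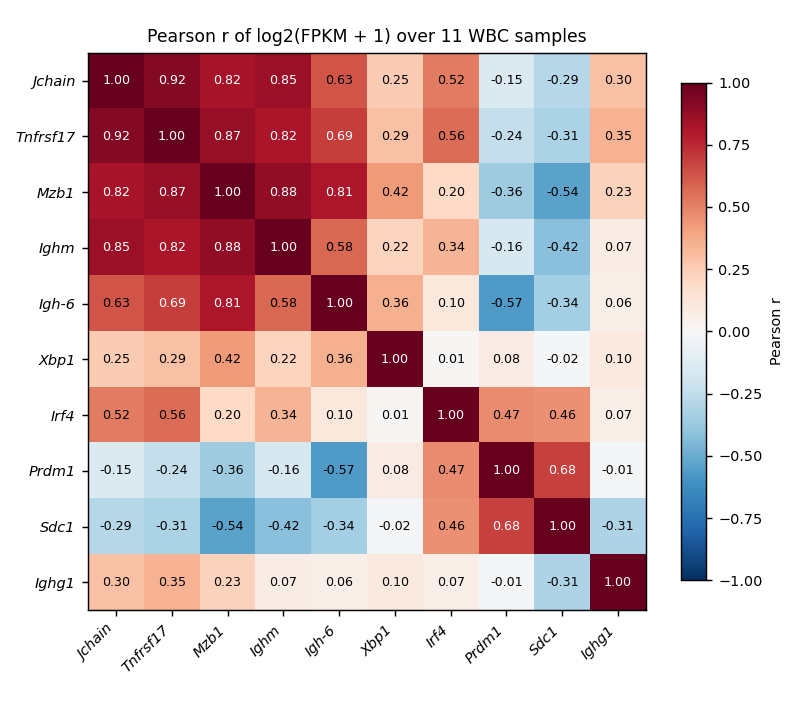
Pearson's r of log2(FPKM + 1) over the 11 WBC samples between the 7 plasma cell genes, Ighg1, Ighm and Igh-6, from -1 (blue) to 1 (red). Jchain, Tnfrsf17, Mzb1 and Ighm form a block with r from 0.82 to 0.92, whereas Ighg1 does not exceed 0.35 with any of them.

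The genes nearest to each member in pattern were taken as the 3 with the highest r over the 11 samples. For Tnfrsf17 and Jchain the nearest was AABR07051532 (ENSRNOG00000049009; r = 0.95 and 0.94), and AABR07060872 was among the 3 for Tnfrsf17, Jchain and Mzb1 (r = 0.94, 0.90 and 0.90). The deposited annotation places both under immunoglobulin production. Mzb1 was nearest to F8a1 (r = 0.93), and AABR07065886, annotated with antigen binding, also stood among its 3 (r = 0.90). Tigar completed the 3 of Tnfrsf17 (r = 0.85) and Mcart1 those of Jchain (r = 0.91). The other members had neighbours of another kind. Those of Prdm1 were Wasf2, Cst7 and Klf6 (r from 0.92 to 0.94), those of Irf4 were Sema7a, Ccer2 and Pim2 (r from 0.92 to 0.94) and those of Sdc1 were Ric1, Skil and Gpr35 (r = 0.95 each). Pim2 is a kinase on the list of other plasma cell genes. For Xbp1 the 3 were LOC108348065, Cmtm6 and Tmem268 with r from 0.95 to 0.97, which fell to 0.82, 0.76 and 0.85 without the outlying sample.

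Levels of B cell markers moved with Jchain, Mzb1 and Tnfrsf17. The mean log2 level of 7 markers, Ms4a1 and Cd79b among them, had an r of 0.78 with Jchain, 0.76 with Mzb1 and 0.71 with Tnfrsf17 over the 11 samples, against 0.00 with Ighg1. This was not particular to B cell markers. T cell markers had an r of 0.68, 0.50 and 0.56 with the same genes in this order. Genes of entry into the ER had 0.63, 0.59 and 0.58, whereas neutrophil markers had -0.57, -0.60 and -0.58. The summed level of the 7 B cell markers ran from 253 to 351 FPKM in Nampt++, from 187 to 396 FPKM in Nampt+ and from 163 to 770 FPKM in Normal samples. Normal replicate 2, the lowest sample for Jchain, Mzb1 and Tnfrsf17, was also the lowest in these markers, and Normal replicate 3 was the highest in them and in Mzb1. On FPKM, Prdm1 went instead with markers of plasmacytoid dendritic cells (r = 0.88 over 8 genes) and of monocytes (r = 0.69 over 7 genes). Red cell genes had an r of -0.73 with Prdm1. More haemoglobin lowers the FPKM of all other genes by scaling, and the part of this in the r of the lists was not tested. The sensors of the unfolded protein response stood at 0.71 with Prdm1, genes of degradation at 0.58 and transport genes at 0.57. Among single genes, 7.06% had an r with Prdm1 at least as high as the 0.68 of Sdc1. The part of these cell types in the levels of the 7 genes was not tested.

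The Nampt++ sample of rat 1, in which Xbp1 was 4.55 times the median of the other 10 samples, was looked at for the other genes of the ER. Of the folding genes, such as the chaperones and disulphide isomerases, 4 of 26 were above all other samples there, with a median ratio of 1.06. The like numbers were 6 of 26 for entry into the ER (median ratio 1.103), 3 of 16 for degradation of misfolded protein (1.09), 5 of 25 for transport to the Golgi (1.19) and 4 of 13 for the sensors of the unfolded protein response (1.17). Over all 11242 genes the share above all other samples was 17.3% and the median ratio 1.03. The highest ratios named were those of Sdf2l1 (2.66), a cofactor of ER chaperones, and Ssr3 (2.13), a subunit of the translocon, both chosen after their values were seen. Jchain, Mzb1 and Tnfrsf17 of this sample lay within the range of the other 10. Markers of neutrophils were higher in it, with 6 of 9 above all other samples and a median ratio of 4.05, and its share of haemoglobin counts, 6.84%, was the lowest. None of 7 B cell markers was above all other samples. The part of these in the level of Xbp1 was not tested.

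**Figure D5:**
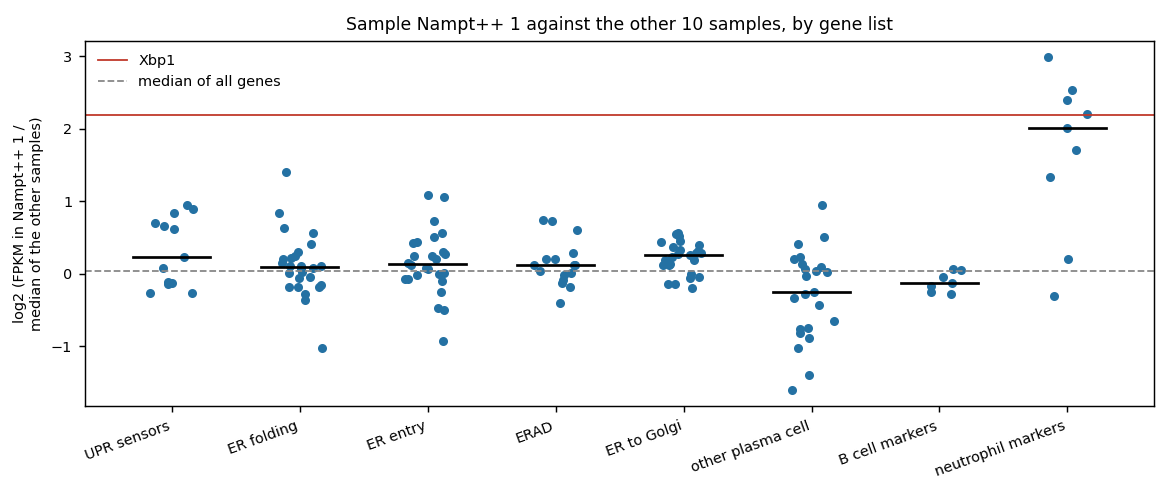
Log2 ratio of the FPKM in the Nampt++ sample of rat 1 to the median of the other 10 samples for genes of the ER, other plasma cell genes, B cell markers and neutrophil markers, with a bar at each list's median. Xbp1 (red line, ratio 4.55) lies above every gene of the ER lists, and the neutrophil markers have a median ratio of 4.05.

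The other genes of the pathway were called about as rarely as the 7. No gene was called in any comparison among 23 other plasma cell genes tested, 20 genes of the B cell programme that plasma cells shut down, 26 genes of ER folding, 26 of entry into the ER, 16 of degradation, the sensors of the unfolded protein response, the transport genes and the BAFF, APRIL and cytokine genes. The medians of the log2 fold changes for the B cell genes were 0.21 for Nampt+ against Nampt++, with 16 of 20 fitted above 0, and -0.27 for Nampt++ against Normal, with 3 of 20 above 0. The transport genes had medians of -0.13, with 6 of 26 above 0, and 0.15, with 22 of 26 above 0, in the same comparisons. All other medians of these lists lay between -0.13 and 0.11 on the log2 scale. Genes of a list were measured in the same samples, so the counts above 0 are not independent. The summed level of the B cell genes was 576 to 631 FPKM in Nampt++, 388 to 770 FPKM in Nampt+ and 389 to 1270.5 FPKM in Normal samples. That of the transport genes was 467 to 646, 324 to 626 and 431 to 631 FPKM in the same order, so the groups overlapped for both.

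Among the genes of cell division, of which dividing plasmablasts are known to hold high levels, Ube2c was called. It was at 1.13 ± 0.426 FPKM (SD, n = 4) in Nampt++ samples, 2.39 ± 1.13 FPKM (n = 4) in Nampt+ samples and 2.28 ± 0.239 FPKM (n = 3) in Normal samples. The ratio of Ube2c was 2.11 for Nampt+ against Nampt++ and 0.496 for Nampt++ against Normal, with adjusted p values of 0.99956 and 0.99992 in edgeR. The rest of the 14 and 13 genes tested in these comparisons were not called, and the list's medians were 0.10 and -0.11. Of the markers of other blood cells, the platelet gene Ppbp was called lower in Nampt++ than in Normal samples (ratio 0.443). Its adjusted p was 0.99992 in edgeR, and the 7 platelet markers had a median log2 fold change of 0.08, with 4 above 0. Gzma of cytotoxic cells was called lower in Nampt+ than in Normal samples (ratio 0.331), at 22.3 ± 10.4 against 67.5 ± 64.7 FPKM (SD). The haemoglobin gene Hba-a3 was called higher there (ratio 6.92), at 3863 ± 2857 against 558 ± 859 FPKM. Both had an adjusted p of 0.99999 in edgeR. In this comparison, the markers of NK cells had a median log2 fold change of -0.65 and the red cell markers 0.18.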

How the data were processed

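WBCs of 3 normal healthy controls and of 4 CIA rats at Nampt++ and Nampt+ status were sequenced as poly(A) RNA. The submitters' processing notes name Cutadapt 1.9, HISAT2 2.0.4 and StringTie 1.3.4, and the genome build and the way reads were counted are not given in the sources used here. The authors deposited counts, whole numbers of reads per gene without normalization, and FPKM values, scaled to gene length and library total. An FPKM of 0.0001 stands for 0 and was read as 0. The 7 genes and all lists were chosen with earlier results of these data known, and 1 gene of the lists is not reported here by itself.

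Counts were tested by edgeR 4.0.16 (quasi-likelihood, TMM) in R 4.3.3 for genes whose FPKM averaged 1 or more in the samples of a comparison, with p values adjusted by the Benjamini-Hochberg method over all genes tested. Single genes and ratios went through a two-sided exact permutation test on log2 values, with a pseudocount of 1 for FPKM but none for ratios (Python 3.11.15, NumPy 2.4.6). Correlations used log2(FPKM + 1). The script was tested on simulated data. The text names the 7 genes, Ighg1, list genes that were called and, per gene, the 3 most alike in pattern. Total counts of at least 65340027 per sample make counting error small beside the spread between rats. Intervals and p values cover the spread between these samples.

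Same-numbered CIA samples were taken to be from the same rat by the methods and by the sample descriptions, such as CIA1-1 and CIA1-2. Their deviations from the means of their groups were correlated at -0.27, -0.24, 0.23 and 0.09 for rats 1 to 4, below the 0.615 of Nampt++ rat 2 with Nampt+ rat 1, the highest of all 16 pairs, so the pairing rests on the design and did not show in the data. An alternative fit had the rat as a block. Controls share only numbers with CIA rats. Other alternatives were upper quartile scaling, haemoglobin genes left out, other filters, DESeq2 1.42.0, limma 3.58.1, all groups in the fit and each sample left out in turn. The ratio to Ighg1, pairs among the genes, the fold from the fitted difference, limma with the block and the pattern of Xbp1 without its outlying sample were added after the data were seen.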

Additional observations from a re-analysis of the deposited data

Results flagged for a closer look

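In the 16 groups of 4 samples looked at (the 7 genes and Ighg1 at each status), 2 values stood apart from the other 3 of their group by Dixon's criterion, which by chance marks about 1 in 20 groups. Xbp1 was at 142.42 FPKM in the Nampt++ sample of rat 1, against 30.4 to 38.3 FPKM in the other rats, a gap of 0.929 of the group's range. Tnfrsf17 was at 8.2277 FPKM in the Nampt+ sample of rat 3, against 3.37 to 4.19 FPKM in the other rats, with a gap of 0.832 of the range. In this sample Jchain (271 FPKM) and Irf4 (11.9 FPKM) were also the highest of the 11.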

How the results depend on the processing

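The number of rats limits what these data can show, and 9 of the 21 fold changes of the 7 genes kept their sign under all alternatives. The count of called members stayed at 0 in both comparisons with controls and, between Nampt+ and Nampt++ samples, was 0 to 1 with a sample left out, the 1 being Xbp1 without Nampt++ replicate 4 (log2 fold change -1.096). With the rat as a replicate block in edgeR, 0 members and 56 genes were called for Nampt+ against Nampt++, beside 72 genes without the block, and no call of a member or of Ighg1 changed. Ighg1 kept its calls in both comparisons with the controls under all alternatives, with a log2 fold change from 1.76 to 2.20 for Nampt++ and from 1.49 to 2.14 for Nampt+, whereas between Nampt+ and Nampt++ samples it ran from -0.32 to 0.18.

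The number of genes called depended on the setting, and the cause was not tested. For Nampt+ against Nampt++ it was 72, and 295 without a filter, 19 at a mean FPKM of at least 10, 123 in limma with the replicate block and 58 to 165 with a sample left out (163 without Nampt++ replicate 2, 165 without Nampt+ replicate 2). For Nampt++ against Normal it was 77, and 306 without a filter, 25 at a mean FPKM of at least 10, 121 in DESeq2, 145 and 140 in limma with pseudocounts of 1 and 0.1, and 53 to 462 with a sample left out (462 without Normal replicate 2, 142 without Normal replicate 3, 184 without Nampt++ replicate 2). For Nampt+ against Normal it was 56, and 261 without a filter, 14 at a mean FPKM of at least 10 and 49 to 136 with a sample left out (136 without Normal replicate 2, 112 without Normal replicate 3, 98 without Nampt+ replicate 1).

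Small fold changes turned their sign. For Nampt++ against Normal, Irf4 was -0.070 with upper quartile scaling, and Prdm1 was 0.069 and 0.087 in limma with pseudocounts of 1 and 0.1. Against Normal, Mzb1 of the Nampt+ samples was -0.0318 with upper quartile scaling, -0.0013 without a filter, -0.0318 at a mean FPKM of at least 10, and -0.052 and -0.050 in limma with pseudocounts of 1 and 0.1. With a sample left out, the log2 fold changes that turned were those of Sdc1 (-0.69 to 0.53) and Mzb1 (-0.31 to 0.10) for Nampt+ against Nampt++. In Nampt++ against Normal they were those of Prdm1 (-0.34 to 0.23), Irf4 (-0.21 to 0.14), Sdc1 (-0.91 to 0.96), Tnfrsf17 (-0.028 to 0.63), Mzb1 (-0.069 to 0.38) and Jchain (-0.14 to 0.29). In Nampt+ against Normal they were those of Prdm1 (-0.51 to 0.060), Xbp1 (-0.048 to 0.27), Sdc1 (-0.83 to 0.67) and Mzb1 (-0.21 to 0.28). Of these 26 turns, 9 came without Normal replicate 2 and 5 without Nampt++ replicate 2.

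The number of members correlated with Ighg1 over rats at a permutation p under 0.05 was 0, and 1 with deviations from the group means (Sdc1, r = -0.78) and 0 to 2 with a rat left out, the 2 being without Normal replicate 3. The r of Irf4 turned to -0.022 with deviations, that of Prdm1 to 0.17 with the Nampt++ samples alone and that of Xbp1 to -0.10 with the Nampt+ samples alone. With a rat left out, r ran from -0.36 to 0.17 for Prdm1, -0.27 to 0.46 for Irf4 and 0.079 to 0.70 for Xbp1. It ran from -0.56 to 0.019 for Sdc1 and -0.26 to 0.87 for Tnfrsf17. For Mzb1 the range was -0.46 to 0.84 and for Jchain -0.75 to 0.74.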

Other observations

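The summed level of neutrophil markers was 40227 FPKM in the Nampt++ sample of rat 1 and from 2080 to 15592 FPKM in the other 10. Over the 11 samples, the mean log2 level of these 9 markers had a Pearson's r of -0.57 with Jchain, -0.60 with Mzb1, -0.58 with Tnfrsf17 and 0.30 with Xbp1. The mean log2 level of 13 genes of cell division had an r of 0.73 with Jchain, 0.72 with Tnfrsf17, 0.69 with Mzb1 and 0.24 with Ighg1. The mean log2 level of 7 red cell genes had an r of -0.73 with Prdm1 and -0.61 with Xbp1. It stood at -0.43 with Sdc1, -0.38 with Irf4, -0.04 with Jchain, -0.03 with Mzb1 and 0.01 with Tnfrsf17. Haemoglobin genes took 6.84% to 42.8% of the counts, and FPKM is scaled to the library total. More haemoglobin therefore lowers the FPKM of other genes by scaling alone, and the part of this in these values was not tested. These values describe samples that share rats and depth, and no test was made of them.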
